A study of Homo sapiens with 6 samples.

Results

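The genes described here repair breaks in a single DNA strand and join broken DNA ends. They were taken from a list of 37 symbols by gene name in the deposited table. A row was found for 36 of the 37 among 13696 genes, and SHLD1, a shieldin subunit, has no row under that name. All 36 passed the filter on low values, a mean of at least 1 CPM (reads of a gene scaled to a common library size) over the 6 libraries. All libraries come from hTERT RPE-1 cells, a line of human retinal pigment epithelial cells immortalised with telomerase. One group of 3 libraries came from untreated cells. The other group of 3 came from cells given 25 nM camptothecin for 1 h, a dose the submitters call a pre-dose, and harvested 24 h after the drug was taken away. The sample titles of both groups also carry the word Top1, which the labels do not explain. It is 1 cell line with no second model, and the labels do not say whether replicates were separate cultures, so p-values measure the spread between these libraries, which may be technical.

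Camptothecin traps topoisomerase 1 on DNA after it has cut a single strand. Removal of the trapped enzyme leaves a single-strand break, which PARP1 and PARP2 detect and which XRCC1 and LIG3 help to close. A replication fork that runs into such a lesion can leave a double-strand end, which is either resected for recombination or joined. The joining route uses the Ku proteins, DNA-PKcs and ligase 4. Another route, led by polymerase theta, anneals short repeats at resected ends. The comparison asks whether the cells had altered the transcripts of these enzymes one day after the low dose. RNA levels say nothing of the amount or modification of the proteins.

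The effective read totals of the libraries were 26336942 to 31780392. They were calculated back from the lowest value of each library, taken as no reads plus an offset of 0.5 reads. On that scale 3 counts correspond to 0.0944 to 0.114 CPM. The lowest member in any library, XRCC4 at 3.21 CPM, lay far above that limit. Both libraries of replicate 1 stood apart from the other 4 on the first principal component, which held 59.4% of the variance. Of 11 markers of retinal pigment epithelium, 3 have a row (MITF, OTX2 and BEST1) and 8 have none, among them RPE65 and RLBP1, which define the mature tissue. The keratins KRT8 and KRT18 stood at 869 to 979 and 413 to 461 CPM. VIM and COL1A1, listed as markers of fibroblast-like cells, stood at 8644 to 11120 and 139 to 428 CPM. Of 7 markers of blood, endothelial and nerve cells, only SNAP25 has a row, at 0.967 to 1.61 CPM.

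No member passed the test of pre-dose against untreated. In limma-trend on log2(CPM + 1), 0 of 36 members and 0 of 13616 genes (0%) had an adjusted p under 0.05. At an unadjusted p under 0.05 there were 0 members and 280 genes (2.06% of all genes tested). The smallest unadjusted p of a member was 0.120 in limma, for POLM. Groups did not overlap for 0 members, against 6.55% of all genes. The fitted log2 differences ran from -0.18 for POLQ to 0.16 for EME2, with standard errors between 0.052 and 0.24. For 33 of the 36 members the 95% interval lay within 0.5 on either side of 0 on the log2 scale, which is up to 1.41-fold in CPM + 1, the scale of the fit, and somewhat more in CPM for low members. The 3 others were POLQ, EME2 and RNASEH2A, whose intervals were -0.50 to 0.14, -0.19 to 0.51 and -0.64 to 0.48. These intervals leave room for changes of the size listed for single genes below. The fit has no term for the replicate number, so differences between replicate numbers count as spread in them.

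The fitted differences were more often below 0 than above it, though none passed. The difference was below 0 for 26 of 36 members, against 50.6% of all genes, and the median difference was -0.041 against -0.0013 over all genes. All 3 pairs of equal replicate number were lower for 9 members (16.3% of all genes) and higher for 3 (15.6% of all genes). In both the replicate 2 and the replicate 3 pair, 20 members were lower (32.4% of all genes) and 7 were higher (32.2% of all genes). The replicate 1 pair did not show this, with a median difference over the members of 0.0072, against -0.090 and -0.047 in pairs 2 and 3. Without pre-dose replicate 2 the number below 0 was 20. In the fit of replicates 2 and 3 alone it was 26.

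**Figure D1:**
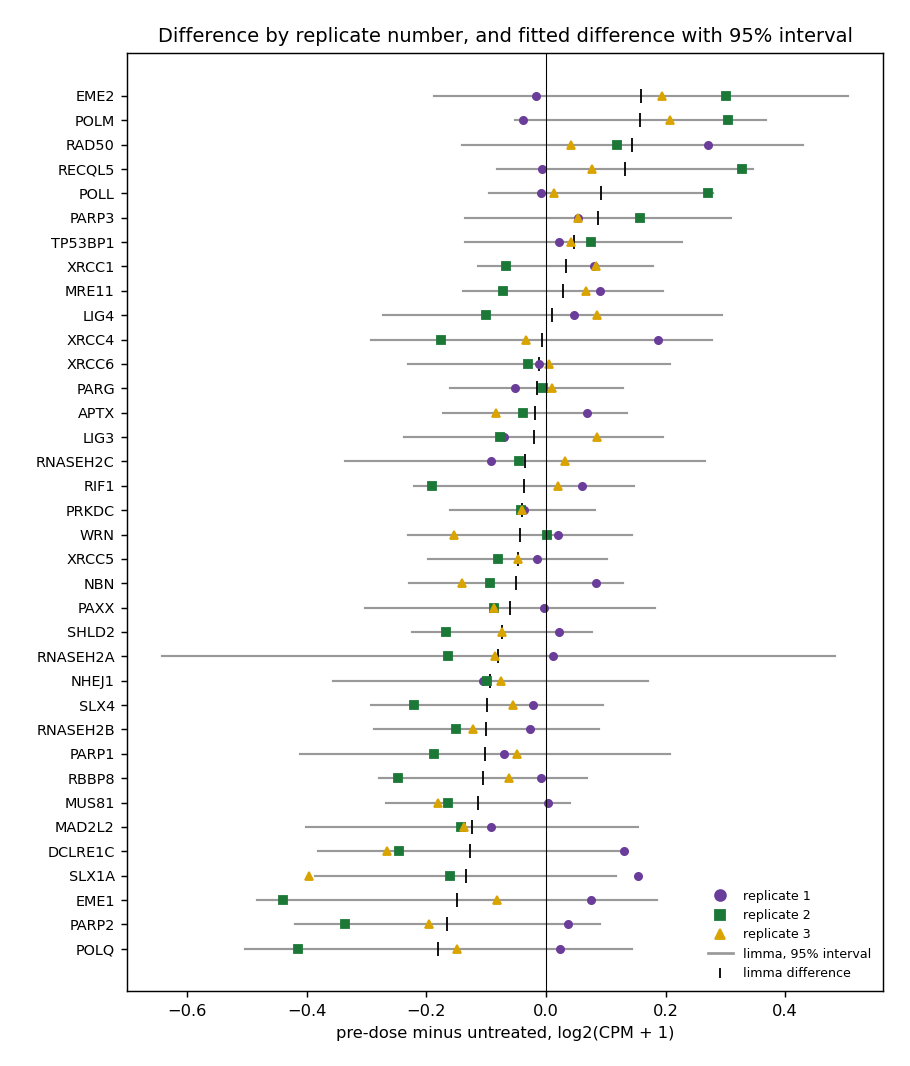
Difference between pre-dose and untreated libraries of equal replicate number (points, log2(CPM + 1)) for each of the 36 members, with the fitted difference (tick) and its 95% interval (grey line). Each interval includes 0, and for some members the point of replicate 1 lies on the other side of 0 from those of replicates 2 and 3.

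Within replicates 2 and 3 alone, a fit of 2 libraries against 2, 4 members passed out of 36 (6.36% of all genes tested). PARP2 and SLX1A were lower (3.47% of all genes were) and EME2 and POLM were higher (2.89%). The members' share of 4 in 36, or 11.1%, rests on 4 genes. By the authors' deposited table, 0 of 36 members had an adjusted p under 0.05 (3.05% of all genes tested), and 8 had an unadjusted p under 0.05 (23.3%). These 8 were PARP2, MUS81, SLX1A, DCLRE1C, MAD2L2 and POLQ, all lower, and EME2 and POLM, both higher. The authors' log2 fold changes were deposited as untreated minus pre-dose. They are given throughout with the sign turned, as pre-dose minus untreated. Weighting the libraries by their estimated quality called 0 members (1.39% of all genes). With replicate number as a blocking term, limma called 0 members and 0% of genes, and its count at an unadjusted p under 0.05 was 3 members, PARP1, RAD50 and MAD2L2 (10.6% of all genes).

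The first group holds the break sensors and the enzymes of ADP-ribose. PARP1, PARP2 and PARP3 add ADP-ribose to proteins at breaks, and PARG removes it. PARP2 had 23.6, 23.0 and 22.8 CPM in untreated replicates 1, 2 and 3, and 24.2, 18.0 and 19.7 CPM in the pre-dose libraries. The untreated libraries were nearly equal, and pre-dose replicates 2 and 3 lay below all of them while pre-dose replicate 1 lay above. The group means were 23.1 ± 0.420 and 20.7 ± 3.20 CPM (SD, n = 3 each), and the fitted log2 difference was -0.16 ± 0.11 (SE). In replicates 2 and 3 alone it was -0.27 (limma adjusted p = 0.0426), and the authors' deposited table gave -0.22 with an adjusted p of 0.0710. PARP1, the main break sensor, had 169.7, 135 and 138 CPM in untreated and 162, 119 and 133 CPM in pre-dose libraries. Each pair was lower, at -0.070, -0.19 and -0.048 on the log2 scale, but the 2 replicate 1 libraries were the highest of the 6, so the groups overlapped. The block fit gave PARP1 an adjusted p of 0.435 in limma. PARP3, which acts at double-strand breaks, was higher in all 3 pairs, by 0.053, 0.16 and 0.053, with 41.1 to 47.5 CPM in untreated and 42.7 to 52.0 CPM in pre-dose libraries. PARG hardly varied, at 23.6 to 24.3 CPM in untreated and 23.4 to 24.2 CPM in pre-dose libraries, and its interval was -0.16 to 0.13.

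The next group closes single-strand breaks. XRCC1, the scaffold that gathers the repair enzymes, had 63.4, 63.3 and 62.6 CPM in untreated and 67.1, 60.4 and 66.4 CPM in pre-dose libraries. The pre-dose libraries lay on both sides of the untreated ones. LIG3, the ligase bound to XRCC1, had 38.0, 33.2 and 31.3 CPM against 36.2, 31.4 and 33.3 CPM, and the highest value in each group was that of replicate 1. The exons of LIG3 share 29.1% of their bases with exons of RFFL on the opposite strand, and they may share reads, since the labels do not say whether the counting used the strand. RFFL itself had 20.4 ± 0.748 and 20.3 ± 0.738 CPM (SD, n = 3 each). APTX, which clears blocked ends left by failed ligation, stood between 24.1 and 26.1 CPM in all 6 libraries. The fitted log2 differences of XRCC1, LIG3 and APTX were 0.033, -0.020 and -0.018, and their intervals lay between -0.24 and 0.20.

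The third group holds nucleases that cut branched DNA. MUS81 cuts stalled or collapsed forks with its partner EME1 or EME2, and SLX4 is the scaffold that holds MUS81 and the nuclease SLX1. MUS81 had 42.4, 43.9 and 43.2 CPM in untreated and 42.5, 39.1 and 38.0 CPM in pre-dose libraries. Its replicate 1 pair was level at 0.0031 on the log2 scale, and pairs 2 and 3 were lower, at -0.16 and -0.18. The fit gave -0.11 ± 0.065 (SE). In the authors' deposited table MUS81 had a log2 difference of -0.18 and an adjusted p of 0.0535. MUS81 shares 13.9% of its exon bases with CFL1 on the opposite strand, a gene at 1425 ± 59.5 CPM in untreated and 1361 ± 69.2 CPM in pre-dose libraries (SD, n = 3 each), and how far CFL1 reads enter the MUS81 values was not tested.

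The partners of MUS81 had fitted differences of opposite sign, neither of which passed. EME1 had 9.67, 9.29 and 9.25 CPM in untreated and 10.2, 6.59 and 8.69 CPM in pre-dose libraries, so that pre-dose replicate 2 was the lowest of the 6 and pre-dose replicate 1 the highest. EME2 had 18.6, 21.7 and 22.1 CPM in untreated and 18.4, 27.0 and 25.4 CPM in pre-dose libraries, with both replicate 1 libraries lowest. For EME2 the fitted log2 difference was 0.16 ± 0.15 (SE), and it was 0.25 in replicates 2 and 3 alone (limma adjusted p = 0.0395). The difference between the 2 partners was not tested. EME1 shares 16.4% of its exon bases with LRRC59 on the opposite strand. LRRC59 stood at 337 ± 42.8 CPM in untreated and 317 ± 54.4 CPM in pre-dose libraries (SD, n = 3 each). How far LRRC59 reads enter the EME1 values was not tested. EME2 overlaps SPSB3 on the opposite strand over 30.0% of its exon bases, and SPSB3 stood at 21.7 ± 0.509 and 22.3 ± 0.507 CPM (SD, n = 3 each). SLX4 was lower in all 3 pairs, at -0.022, -0.22 and -0.055, with 23.1 to 24.9 CPM in untreated and 20.5 to 24.5 CPM in pre-dose libraries.

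The nuclease SLX1 is encoded by 2 near-identical genes on chromosome 16, SLX1A and SLX1B, and their values have to be read together. Their longest pair of annotated transcripts of equal length, 1558 bases, differs at 1 base. SLX1A had 30.8, 32.1 and 37.6 CPM in untreated and 34.4, 28.6 and 28.3 CPM in pre-dose libraries. SLX1B had 16.7, 6.83 and 3.62 CPM in untreated and 8.17, 9.38 and 12.6 CPM in pre-dose libraries. Where SLX1A was high, as in untreated replicate 3, SLX1B was low. In replicates 2 and 3 alone SLX1A passed as lower (-0.28, limma adjusted p = 0.0432) and SLX1B as higher (0.98, limma adjusted p = 0.0190), and the authors' deposited table gave SLX1B a log2 difference of 1.30 with an adjusted p of 0.0454. The sum of both copies was 47.5, 38.9 and 41.3 CPM in untreated and 42.6, 38.0 and 41.0 CPM in pre-dose libraries. The summed values of pairs 1, 2 and 3 differed by -0.16, -0.034 and -0.0092 on the log2 scale, so that the sum was nearly level in pairs 2 and 3 and lower in pair 1, where SLX1A alone was higher by 0.15. Reads of near-identical copies can be assigned to either, and values for either copy alone are uncertain. SLX1A also shares 86.0% of its exon bases with the read-through gene SLX1A-SULT1A3. With both read-through genes added, the sum was 62.1 ± 4.77 CPM in untreated and 58.9 ± 2.49 CPM in pre-dose libraries (SD, n = 3 each).

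**Figure D2:**
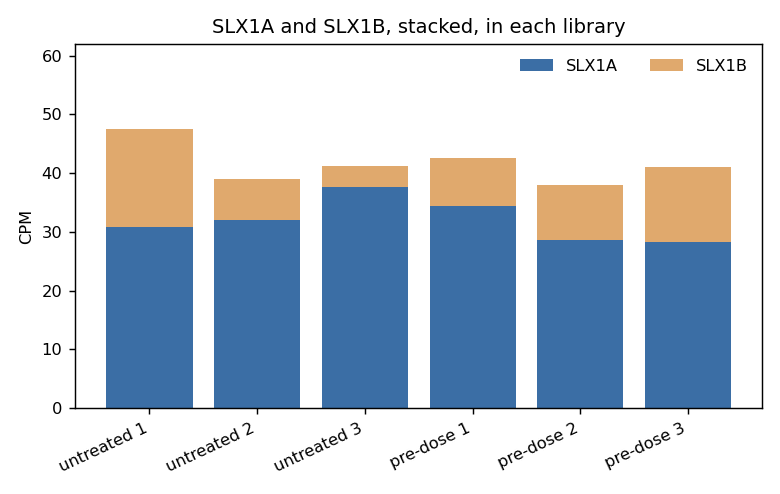
Stacked bars of SLX1A (lower part) and SLX1B (upper part) in CPM for each of the 6 libraries. The height of the stack runs from 38.0 to 47.5 CPM, while SLX1B alone runs from 3.62 to 16.7 CPM.

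Resection prepares an end for recombination. MRE11, RAD50 and NBN form the complex that first cuts back a broken end, and RBBP8 encodes CtIP, its activator. RBBP8 had 31.9, 32.6 and 31.6 CPM in untreated and 31.8, 27.3 and 30.2 CPM in pre-dose libraries. Only pre-dose replicate 2 stood clearly below the others. The fitted log2 difference of RBBP8 was -0.11 ± 0.074 (SE). MRE11 had 21.8, 21.7 and 21.4 CPM against 23.3, 20.6 and 22.5 CPM, with pre-dose libraries on both sides of the untreated ones. NBN ranged from 32.4 to 38.3 CPM in untreated and from 33.2 to 34.7 CPM in pre-dose libraries.

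RAD50 had 41.1, 53.8 and 54.6 CPM in untreated and 49.8, 58.6 and 56.2 CPM in pre-dose libraries. It was higher in all 3 pairs, most in the replicate 1 pair (0.27, 0.12 and 0.042 on the log2 scale), and the groups overlapped. RAD50 shares 79.7% of its exon bases with an overlapping gene on the same strand, AC116366.2 in the table. That gene had 16.0, 15.3 and 8.28 CPM in untreated and 8.91, 8.28 and 11.7 CPM in pre-dose libraries. The summed values of both genes were 57.1, 69.1 and 62.8 CPM in untreated and 58.7, 66.9 and 67.9 CPM in pre-dose libraries, and their pair differences were 0.039, -0.047 and 0.11. The sum was thus not higher in all 3 pairs.

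Helicases and RNase H2 act at forks and on ribonucleotides in DNA. WRN and RECQL5 unwind DNA at damaged forks. RECQL5, which also restrains recombination, had 15.8, 15.3 and 16.3 CPM in untreated and 15.7, 19.4 and 17.3 CPM in pre-dose libraries. Pre-dose replicate 2 was the highest of the 6, and the fit gave a log2 difference of 0.13 ± 0.091 (SE). WRN stood at 14.6 to 17.0 CPM in untreated and 14.9 to 15.8 CPM in pre-dose libraries. RNase H2 removes ribonucleotides from DNA, the alternative to a cut by topoisomerase 1 at those sites. RNASEH2B, a structural subunit, had 19.2, 21.3 and 22.3 CPM in untreated and 18.8, 19.1 and 20.4 CPM in pre-dose libraries, lower in all 3 pairs. RNASEH2A, the catalytic subunit, had 69.7, 44.5 and 47.8 CPM in untreated and 70.3, 39.6 and 45.0 CPM in pre-dose libraries. Its libraries sorted by replicate number and not by group. RNASEH2C, the other structural subunit, had 57.4, 44.8 and 43.6 CPM against 53.8, 43.3 and 44.6 CPM, again with replicate 1 highest in both groups. For RNASEH2B, in contrast, replicate 1 held the lowest value of each group.

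The core of end joining includes the 3 members with the highest CPM, PRKDC, XRCC6 and XRCC5. XRCC6 and XRCC5 encode Ku70 and Ku80, which bind the DNA end and recruit the kinase DNA-PKcs, the product of PRKDC. XRCC6 had 414, 353 and 353 CPM in untreated and 411, 346 and 354 CPM in pre-dose libraries. Both replicate 1 libraries stood above the other 4, which lay close together in either group. XRCC5 had 376, 349 and 355 CPM in untreated and 372, 331 and 344 CPM in pre-dose libraries, and PRKDC had 598, 569 and 575 CPM against 583, 553 and 559 CPM. PRKDC was lower in each pair to nearly the same extent, at -0.036, -0.042 and -0.040 on the log2 scale, with an interval of -0.16 to 0.08. The intervals of XRCC5 and XRCC6 were -0.20 to 0.10 and -0.23 to 0.21.

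LIG4, the ligase of this route, had 9.18, 11.7 and 11.3 CPM in untreated and 9.52, 10.9 and 12.0 CPM in pre-dose libraries, lowest in replicate 1 in both groups. Its scaffold XRCC4 was the lowest member in CPM, at 3.21 to 4.30 CPM in untreated and 3.46 to 4.18 CPM in pre-dose libraries. DCLRE1C encodes Artemis, a nuclease that opens hairpin ends. It had 11.3, 12.5 and 14.3 CPM in untreated and 12.5, 10.4 and 11.7 CPM in pre-dose libraries, higher in the replicate 1 pair by 0.13 and lower in the others, at -0.25 and -0.26. In replicates 2 and 3 alone its limma adjusted p was 0.139, and the authors' deposited table gave -0.24 with an adjusted p of 0.123. NHEJ1 and PAXX encode XLF and PAXX, accessory factors related to XRCC4. NHEJ1 was lower in all 3 pairs (-0.11, -0.098 and -0.075), and so was PAXX (-0.0039, -0.087 and -0.087). The ranges of both overlapped between the groups, at 17.7 to 21.8 against 16.5 to 20.2 CPM for NHEJ1 and 28.9 to 34.2 against 27.2 to 34.1 CPM for PAXX.

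Ends are protected from resection by 53BP1, the product of TP53BP1, together with RIF1 and shieldin. TP53BP1 had 114, 128 and 126 CPM in untreated and 116, 135 and 130 CPM in pre-dose libraries. Each pair was higher, by 0.022, 0.075 and 0.042 on the log2 scale, which is less than the gap between replicate 1 and the other replicates. The exons of TP53BP1 share 28.7% of their bases with TUBGCP4 on the opposite strand, which stood at 38.3 ± 1.67 and 37.7 ± 3.06 CPM (SD, n = 3 each). SHLD2, the shieldin subunit that binds single-stranded DNA, had 36.3, 39.3 and 38.9 CPM in untreated and 36.8, 34.9 and 36.9 CPM in pre-dose libraries. Pre-dose replicate 2 was its lowest library. SHLD2 shares 10.9% of its exon bases with GLUD1 on the opposite strand. GLUD1 stood at 135 ± 3.97 CPM in untreated and 134 ± 5.43 CPM in pre-dose libraries (SD, n = 3 each). How far GLUD1 reads enter the SHLD2 values was not tested. MAD2L2, which encodes REV7, a shieldin subunit that also serves translesion polymerase zeta, was lower in all 3 pairs, at -0.092, -0.14 and -0.14. It ranged from 39.1 to 48.3 CPM in untreated and from 35.3 to 45.3 CPM in pre-dose libraries, and in the authors' deposited table its log2 difference was -0.13 (adjusted p = 0.203). RIF1 ranged from 68.3 to 81.3 CPM in untreated and from 71.1 to 77.0 CPM in pre-dose libraries.

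The last group holds the polymerases of end joining. POLQ encodes polymerase theta, and POLL and POLM encode polymerases lambda and mu, which fill gaps during joining by Ku and ligase 4. POLQ had 27.2, 25.0 and 24.5 CPM in untreated and 27.7, 18.5 and 22.0 CPM in pre-dose libraries. Pre-dose replicates 2 and 3 were the lowest of the 6 and pre-dose replicate 1 the highest. The group means were 25.6 ± 1.44 and 22.8 ± 4.64 CPM (SD, n = 3 each), and the difference of -0.18 ± 0.14 (SE) on the log2 scale was the most negative of the members. In replicates 2 and 3 alone it was -0.28 (limma adjusted p = 0.0619). POLM had 19.7, 18.3 and 19.7 CPM in untreated and 19.1, 22.9 and 22.9 CPM in pre-dose libraries. Here pre-dose replicates 2 and 3 stood above every untreated library and pre-dose replicate 1 among them. The fitted log2 difference of POLM was 0.16 ± 0.090 (SE), and 0.26 in replicates 2 and 3 alone (limma adjusted p = 0.0432), and the authors' deposited table gave 0.24 with an adjusted p of 0.0537. POLL had 29.1, 27.6 and 31.0 CPM in untreated and 28.96, 33.5 and 31.3 CPM in pre-dose libraries, a spread carried by replicate 2.

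**Figure D3:**
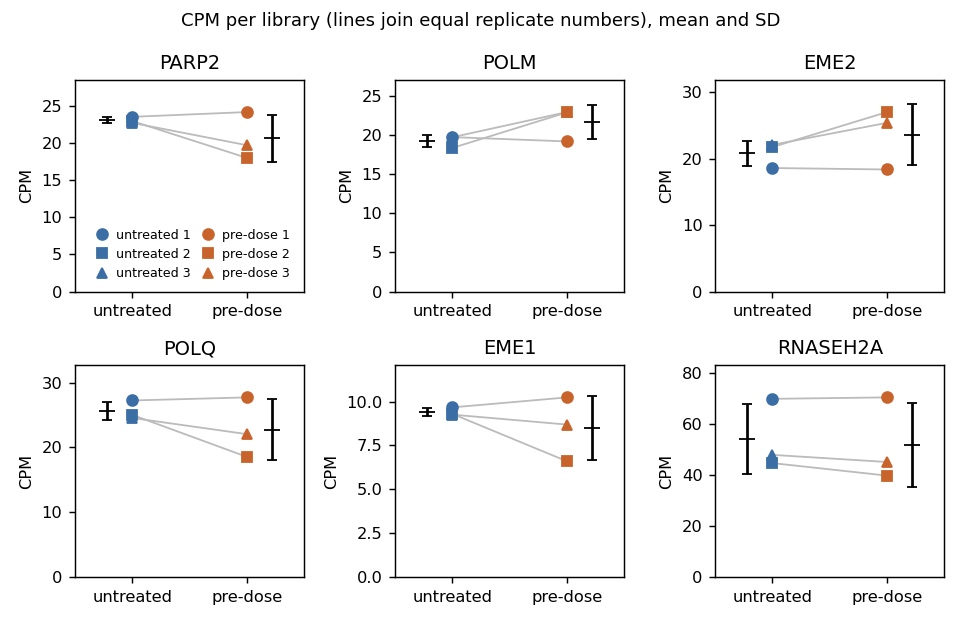
CPM of 6 members in each library, from 0 upward, with lines joining equal replicate numbers and bars for the mean and SD of each group of 3. For PARP2, POLQ and EME1 the pre-dose libraries of replicates 2 and 3 lie below their partners, for POLM and EME2 above, and for RNASEH2A both replicate 1 libraries, at 69.7 and 70.3 CPM, stand apart.

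The levels of transcripts of dividing cells were high and low in the same pre-dose libraries as POLQ, EME1 and PARP2, among other members. Over 10 genes of mitosis the log2 differences of pairs 1, 2 and 3 had medians of 0.21, -0.52 and -0.39, with 10 of 10 higher in the first pair and 0 of 10 higher in the others. The mean log2(CPM + 1) of that list was 6.76 to 6.83 in untreated libraries and 7.04, 6.25 and 6.41 in pre-dose replicates 1, 2 and 3. POLQ had pair differences of 0.024, -0.41 and -0.15, EME1 of 0.075, -0.44 and -0.082, and PARP2 of 0.037, -0.34 and -0.20. APTX, MUS81, SLX1A, NBN, RNASEH2A, XRCC4, DCLRE1C and SHLD2 were likewise higher in pair 1 and lower in pairs 2 and 3. A further 9 members were lower in all 3 pairs (16.3% of all genes). With these, 20 members were lower in pairs 2 and 3 (32.4% of all genes), and 7 were higher in both (32.2% of all genes). The share of all genes higher in pair 1 and lower in pairs 2 and 3 was not counted separately. Over 10 genes of DNA replication the medians were -0.051, -0.27 and -0.015. For 10 targets of p53 they were 0.35, 0.59 and 0.53, higher for 10 of 10 in each pair. Of all genes, 15.6% were higher in all 3 pairs. The lists were chosen with earlier results of these data known, so their uniform signs are not independent support. The part of these lists in the members' values was not tested. In bulk libraries fewer cells in a phase and less RNA per cell cannot be told apart.

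Several members differed between replicate numbers, while none passed the test between groups. With the group in the model, 11 of 36 members differed between replicate numbers (limma F test, adjusted p under 0.05), a share of 30.6% against 27.4% of all genes, so the share is close to the background. Higher in replicate 1 were RNASEH2A, PARP1, XRCC6, RNASEH2C, MAD2L2, PAXX and NHEJ1, and lower were RAD50, EME2, TP53BP1 and PARP3. RNASEH2A had the smallest adjusted p, 4.27e-04, with means of 70.0, 42.1 and 46.4 CPM in replicates 1, 2 and 3. PARP1 had an adjusted p of 0.00214, with 166 CPM in replicate 1 against 127 and 136 CPM. XRCC6 had 413 CPM against 349 and 354 CPM (adjusted p = 0.00385). EME2 stood at 18.5 CPM in replicate 1 and at 24.4 and 23.7 CPM in the others (adjusted p = 0.0218). Both replicate 1 libraries lay above the other 4 for 14 members (27.2% of all genes) and below them for 6 (28.3% of all genes). The median size of the offset of replicate 1 was 0.13 on the log2 scale over the members and 0.15 over all genes. By contrast the median size of the fitted group difference was 0.084 for members and 0.057 for all genes. The median offset of replicate 1 was 0.42 over the 10 genes of mitosis, 0.48 over the 10 of DNA replication and -0.64 over the 10 targets of p53. In untreated replicates 1, 2 and 3 the mean log2(CPM + 1) was 6.71, 6.26 and 6.28 for DNA replication. For the p53 targets it was 4.77, 5.17 and 5.11. The part of these lists in the members' offsets was not tested. The labels name no batch, date or culture that separates replicate 1.

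**Figure D4:**
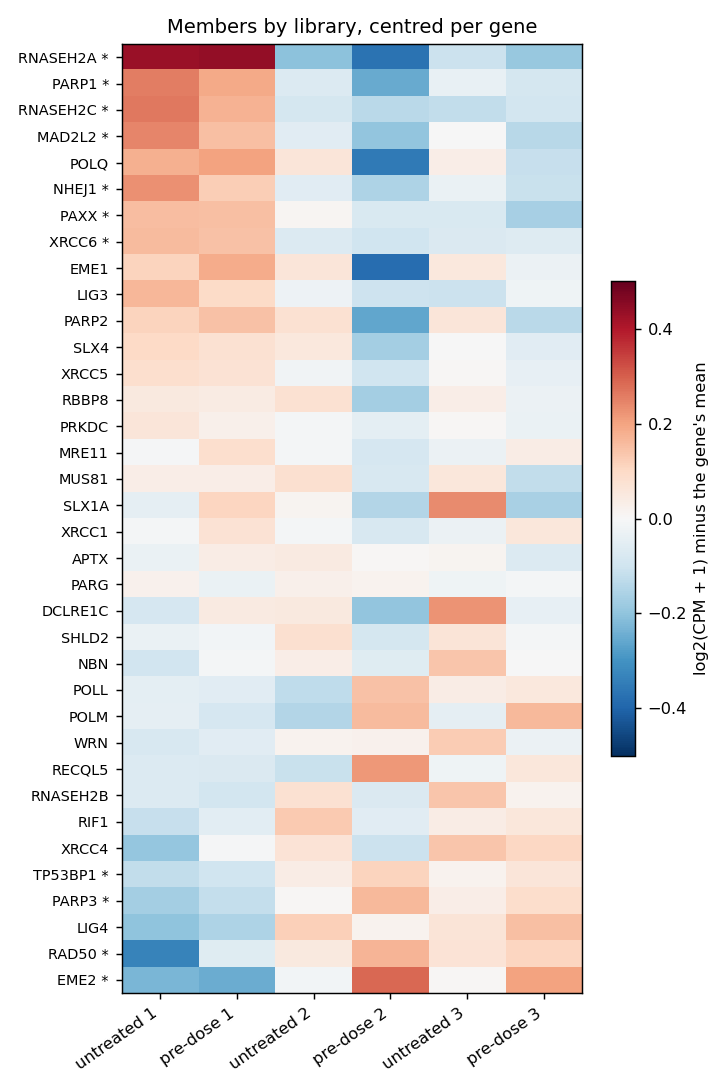
Each row is a member and each column a library, ordered by replicate number, and colour gives log2(CPM + 1) minus the gene's mean over the 6 libraries (asterisks mark the 11 members with an adjusted p under 0.05 for the replicate number). Members at the top are higher in both replicate 1 libraries and those at the bottom lower, and POLQ, EME1 and PARP2 are lowest in pre-dose replicate 2.

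Start regions of 4 members are shown because their transcripts carry the patterns described above. PARP2 and POLM passed in replicates 2 and 3 alone in opposite directions, POLQ had the most negative difference, and RNASEH2A the smallest p for the replicate number. Each is the 250 bases before the annotated start, 5′ to 3′ on the strand of the gene, from RefSeq on GRCh38.p14. Capitals mark CCAAT (the CCAAT box) or TTTGAA (the cell cycle homology region, found in promoters of mitotic genes) on either strand.
PARP2 (chr14:20343385-20343634, + strand): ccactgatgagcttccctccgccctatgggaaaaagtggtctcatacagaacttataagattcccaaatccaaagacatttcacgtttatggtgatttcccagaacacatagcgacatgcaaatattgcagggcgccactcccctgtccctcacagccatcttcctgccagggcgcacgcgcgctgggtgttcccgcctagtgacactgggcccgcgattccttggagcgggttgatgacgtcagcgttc
POLM (chr7:44082531-44082780, - strand): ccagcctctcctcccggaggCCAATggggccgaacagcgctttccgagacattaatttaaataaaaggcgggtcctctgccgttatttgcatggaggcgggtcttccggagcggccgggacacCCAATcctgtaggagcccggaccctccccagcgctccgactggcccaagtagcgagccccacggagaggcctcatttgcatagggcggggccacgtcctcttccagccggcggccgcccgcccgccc
POLQ (chr3:121545989-121546238, - strand): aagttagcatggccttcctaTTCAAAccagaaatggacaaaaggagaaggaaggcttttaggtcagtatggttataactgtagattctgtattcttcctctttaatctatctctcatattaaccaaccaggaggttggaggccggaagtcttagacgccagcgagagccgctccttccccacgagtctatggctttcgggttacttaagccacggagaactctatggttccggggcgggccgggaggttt
RNASEH2A (chr19:12806334-12806583, + strand): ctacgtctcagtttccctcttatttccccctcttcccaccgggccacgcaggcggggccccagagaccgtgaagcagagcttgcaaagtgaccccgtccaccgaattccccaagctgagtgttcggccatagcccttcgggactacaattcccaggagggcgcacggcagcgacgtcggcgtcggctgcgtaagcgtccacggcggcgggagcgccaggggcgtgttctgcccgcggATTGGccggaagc
PARP2 holds no capitals, POLM holds CCAAT at 2 places on its own strand, POLQ holds TTTGAA once on the other strand, and RNASEH2A holds CCAAT once on the other strand, close to the start.

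The same letters were searched on both strands in all RefSeq windows from 250 bases before to 50 after a start. Windows were found for 31 members, 43 windows in all because some genes have several starts, and not for NBN, WRN, PRKDC, XRCC5, SHLD2 and SHLD1. CCAAT was in 22 of the 43 windows (51.2%) and in 34.6% of 35116 windows of all genes, which include noncoding genes. TTTGAA was in 4 of the 43 windows (9.30%), of POLQ, EME2, RIF1 and XRCC1, and in 15.2% of all windows. POLQ has a second copy 4 bases after its start. The E2F letters TTTCCCGC, TTTGGCGC and TTTGGCGG, which share their first 3 letters with TTTGAA, were in 1 of the 43 windows (2.33%), that of XRCC6, and in 2.89% of all windows. A match is a run of letters and does not show that a factor binds there. The members with TTTGAA include EME2, whose pair differences were -0.017, 0.30 and 0.19, and POLQ, whose differences were 0.024, -0.41 and -0.15. For EME2 the bases after the RefSeq start were not found at the opening of a GENCODE 29 transcript of the gene. Its window may therefore not be its start region.

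Levels of the members spanned a wide range once divided by exon length. XRCC6 was highest at 113 ± 9.63 CPM per kilobase of exon (SD over the 6 libraries), followed by XRCC5 at 64.9 ± 3.15 and PRKDC at 37.2 ± 1.05 CPM per kilobase. These 3 subunits of the DNA-dependent protein kinase were separated from one another and from the rest by more than their spread. PAXX (22.5 ± 2.12), PARP1 (19.9 ± 2.66) and XRCC1 (18.5 ± 0.722 CPM per kilobase) came next, and neighbours in that order overlapped within their spread. XRCC4, which acts with ligase 4, stood at 1.43 ± 0.160 and LIG4 at 2.45 ± 0.265 CPM per kilobase. POLQ had 2.57 and its counterparts POLL and POLM 5.58 and 4.55 CPM per kilobase. The order below the first 3 depends on the length used. With the longest annotated transcript in place of merged exons, PARP1 stood at 36.1 and PAXX at 28.5 CPM per kilobase, which swaps their order. POLL stood at 10.4, XRCC4 at 2.26 and LIG4 at 2.57 CPM per kilobase by that length. RNASEH2B was last at 0.768 CPM per kilobase over 26291 merged exon bases and stood at 2.77 by its longest transcript.

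**Figure D5:**
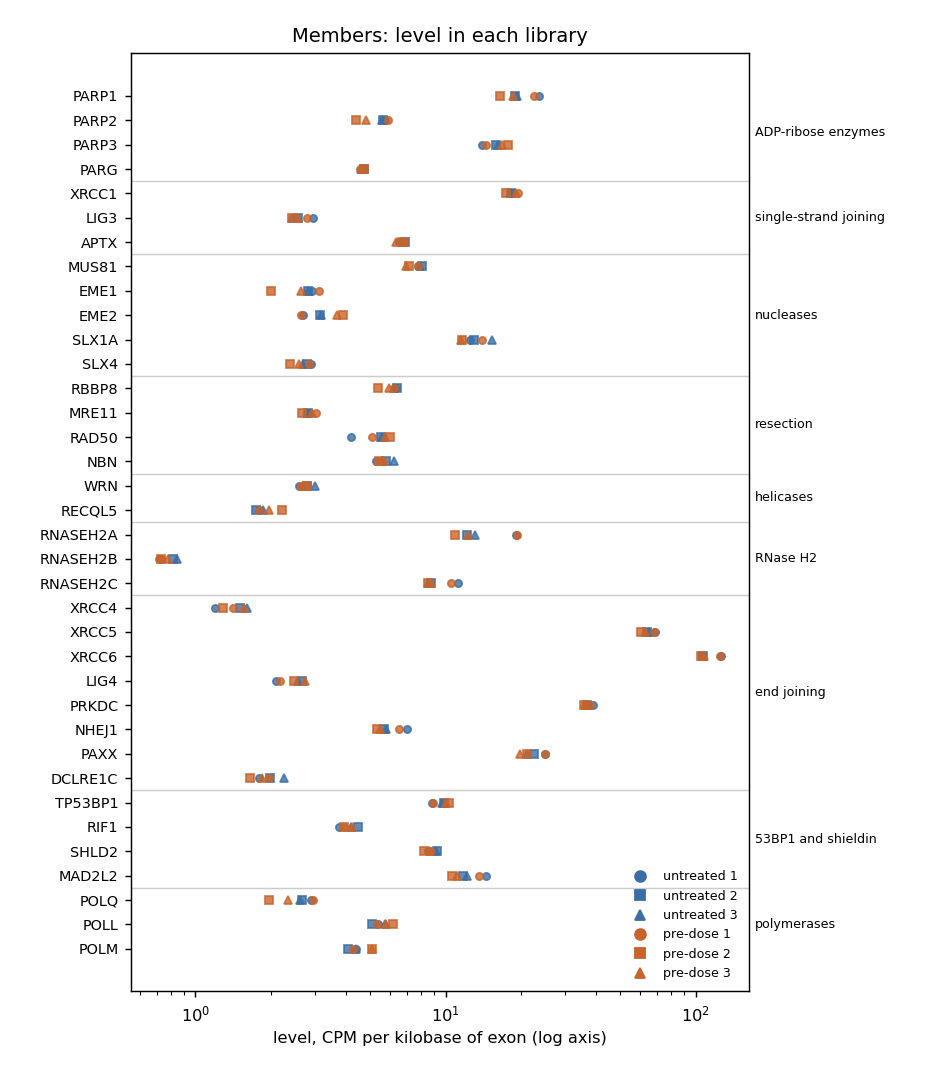
CPM per kilobase of merged exon length (log axis) for each member in each of the 6 libraries, grouped by role. XRCC6, XRCC5 and PRKDC stand to the right at 113, 64.9 and 37.2 CPM per kilobase on average, and the libraries of a gene lie close together beside the spread between genes.

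Further genes of the same routes were read from a list of 36, of which 34 have a row and were tested and 2, SHLD3 and DNTT, have none. In limma 0 of 34 passed over all genes and 1, POLB, had an unadjusted p under 0.05 (2.06% of all genes). POLB, the gap-filling polymerase of base excision and single-strand break repair, had 11.3, 11.1 and 10.7 CPM in untreated and 12.1, 13.8 and 13.6 CPM in pre-dose libraries, so that the groups did not overlap. Its log2 difference was 0.24 ± 0.081 (SE), and the authors' deposited table gave 0.32 with an adjusted p of 0.0344. It was also the 1 gene of the list called with library weights (limma adjusted p = 0.0486). In replicates 2 and 3 alone, 7 of 34 passed (6.36% of all genes). TRIP13, MDC1, H2AX, DYNLL1 and BRCA1 were lower and POLB and SLX1B higher. TRIP13 removes REV7 from its partners, MDC1 and H2AX mark chromatin beside a break, and DYNLL1 binds 53BP1. The log2 differences of these 5 genes in replicates 2 and 3 ran from -0.32 for TRIP13 to -0.17 for MDC1. BRCA1, which promotes recombination, had 52.9, 53.1 and 52.3 CPM in untreated and 52.2, 40.1 and 46.0 CPM in pre-dose libraries. Each pre-dose value lay below every untreated library, though barely so in replicate 1, and the unadjusted limma p was 0.0773. Groups did not overlap for 6 of the 34 (6.55% of all genes). In POLB and CTC1 pre-dose lay above, and in RNF168, BRCA1, BLM and GEN1 below. Of the 34, 24 had a difference below 0, a share of 70.6% beside 72.2% of the members and 50.6% of all genes.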

How the data were processed

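Poly-A RNA was read as paired ends of 6 libraries. Per the submitters' processing notes, bcl2fastq, DRAGEN, edgeR, limma and hg38 were used, with no versions given. The authors deposited 1 table of log2 CPM per library, log2 fold changes and their test scores, p-values and adjusted p-values. Its fold changes are untreated minus pre-dose, and their sign was turned here. For strand and multiply matching reads, no counting setting is stated in these sources. Low values are multiples of 0.01 reads, so the counts were estimated, and no count test was run. Of 13773 rows, 77 repeats of an identifier were dropped. Values were turned back to CPM, which keeps the authors' offset of 0.5 reads, and tested as log2(CPM + 1) with limma 3.58.1 in R 4.3.3 (trend, Benjamini-Hochberg) over 13616 genes whose mean reached 1 CPM. The fit of the groups was also run on simulated data with independent noise in each library. The changes put in were 2 on the log2 scale, far larger than those of the members, so that run says nothing of differences of their size. Exon lengths came from GENCODE 29. The replicate number was added as a term in another fit: deviations from the group means correlated across genes at r = 0.66, 0.45 and 0.18 for equal numbers, and as pairs these passed the limit of 0.1 set for pairing. Untreated 3 with pre-dose 2 (0.51) and untreated 2 with pre-dose 3 (0.28) correlated more than the equal numbers 2 and 3, so the values set replicate 1 apart and do not tell 2 from 3. Named genes had the smallest p of their role, passed in any fit, had the 5 most positive or most negative differences, led the test of the replicate number, or were core members. The members and lists were chosen with earlier results of these data known.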

Additional observations from a re-analysis of the deposited data

How the results depend on the processing

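No member passed limma's test under another pseudocount, filter or scaling, with library weights, with the replicate block or without any 1 library. In replicates 2 and 3 alone limma called 4 members (2 higher), 7 of the other genes of these routes (2 higher) and 866 of all genes (394 higher). Weights estimated gene by gene, chosen after seeing the data because limma's default estimate did not converge and could not be used, called 0 members, 1 of the other genes and 189 of all genes (108 higher). With the replicate block limma called 0 genes, the smallest adjusted p of a member was 0.415, and 1443 genes had an unadjusted p under 0.05. The number of members below 0 ran from 20 to 27 when 1 library was left out, lowest without pre-dose replicate 2. The sign of 16 members changed in at least 1 setting, and that of 20 in none. The count for the replicate number was 11 or 12 in every setting run. With 3 libraries a group, the standard errors of 0.052 to 0.24 limit how closely a member's log2 difference is known. The main fit has no replicate term, so differences between replicate numbers also enter these standard errors. Without that term 280 genes had an unadjusted limma p under 0.05. For PARP1 the unadjusted limma p was 0.465 without the block and 0.0305 with it, at the same difference.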

Other observations

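Of the 36 members, 13 share over 10% of their exon bases with another annotated gene, and for 11 of them that gene is in the table. NHEJ1 shares 65.4% of its exon bases with AC068946.1 on the same strand, a gene at 1.29 CPM on average beside 18.5 CPM for NHEJ1. EME1 shares 16.4% with LRRC59 on the opposite strand, whose pair differences were -0.028, -0.15 and -0.11 on the log2 scale. RNASEH2C shares 28.2% with KAT5 on the opposite strand. KAT5 had 42.9, 34.8 and 36.1 CPM in untreated and 40.5, 37.0 and 36.5 CPM in pre-dose libraries. It was thus highest in replicate 1 in both groups, as RNASEH2C was. How far KAT5 reads enter the RNASEH2C values was not tested. The read-through gene SLX1A-SULT1A3 had 14.2, 11.0 and 10.1 CPM in untreated and 11.1, 9.39 and 9.02 CPM in pre-dose libraries.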
